A study of Mus musculus with 11 samples.

Results

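The clustered protocadherin genes of the mouse lie in 3 neighbouring clusters on chromosome 18, and peaks of Myc-tagged retinoic acid receptor alpha (RARα) over them were described in 6 CUT&RUN libraries. Members were the protein-coding genes with symbols starting Pcdha, Pcdhb, Pcdhga, Pcdhgb or Pcdhgc, chosen by name and not by any measured value. There were 57 members among 21887 protein-coding genes, 14 in the Pcdha, 22 in the Pcdhb and 21 in the Pcdhg cluster. Pcdhgb8, which RefSeq lists as a transcribed pseudogene, was not counted.

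CUT&RUN releases the DNA near a bound protein with a nuclease that is tethered there through an antibody. Here the antibody recognised the Myc tag on RARα, a nuclear receptor that responds to retinoic acid, in cortical neural progenitors from mouse embryos at embryonic day 14 that had been enriched with magnetic beads for the surface protein Prom1. All libraries carry the tagged receptor, and 3 came from control and 3 from Foxc1 mutant embryos. The meninges, which make retinoic acid, depend on the transcription factor Foxc1 for their development. The labels give neither the Foxc1 alleles nor the way the tagged receptor was brought into the cells, and no label ties a replicate to its own embryo or litter. The p-values therefore reflect only how far these libraries spread, which may be technical. The 5 isotype antibody libraries of the series were not analysed here, and no isotype background is given. Peaks do not report expression, and the labelled cell type could not be checked against its markers in these lists.

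Protocadherins are cadherin-like adhesion proteins on the surface of neurons. Each member of the Pcdha and Pcdhg clusters has its own promoter and its own large first exon, which is spliced to constant exons shared by the whole cluster, while Pcdhb genes are single exons. Each neuron switches on a small, largely random set of promoters, which gives it a surface identity by which its branches recognise and avoid each other. Most of these promoters carry a binding site for CTCF, a protein that with cohesin loops them to distant enhancers. The C-type members (Pcdhac1, Pcdhac2, Pcdhgc3, Pcdhgc4 and Pcdhgc5) are used more uniformly across neurons.

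Each cluster was taken from the start of its first gene to the end of its last with 50 kb on either side (mm10 coordinates). The Pcdha window ran from 36880285 to 37238897 on chromosome 18, with Pcdha1 first and Pcdhac2 last. The Pcdhb window ran from 37214998 to 37571419, from Pcdhb1 to Pcdhb22, and the Pcdhg window from 37611775 to 37891873, from Pcdhga1 to Pcdhgc5. The first 2 windows overlap by 23.9 kb, a stretch of 40.4 kb between the last 2 belongs to neither, and the joint locus of 971 kb counts each peak once. The windows also hold Slc25a2, a mitochondrial carrier gene, Taf7, a gene of the general transcription machinery, and part of Diaph1, an actin regulator gene. The protein-coding entries Gm37013, Gm38666 and Gm38667, which were not counted as members, run from inside the Pcdha cluster to the end of the Pcdhg cluster.

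The deposited lists held 11869 to 86446 peaks in the controls and 54112 to 513290 in the mutants, and control replicates 2 and 3 stood apart with the 2 shortest lists, 93.2% and 93.3% of whose peaks were 2 or 3 steps high. A step is the smallest unit of peak height in a library. Its value in signal units is not the same across libraries, so heights are read only within a library. The median peak height was 10, 2 and 2 steps in control replicates 1, 2 and 3 and 4 steps in each mutant library. Each list was used in 2 versions, the full list and an equal-length list of the 11869 peaks of highest total signal. No source used here gives the number of reads, so the depth is unknown, and a gene without a peak in a short list is not shown to be unbound.

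Peaks were dense over the protocadherin clusters in control replicate 1 and in the 3 mutant libraries, and sparse in control replicates 2 and 3. With full lists control replicates 1, 2 and 3 had 99, 2 and 5 peaks in the joint locus, and mutant replicates 1, 2 and 3 had 35, 264 and 270. Relative to the density over chromosome 18, this was 2.87 times in control replicate 1 (95% exact Poisson interval 2.33 to 3.49, which like all such intervals here covers counting error only). The ratio was 0.419 (0.0507 to 1.51) in control replicate 2 and 0.476 (0.154 to 1.11) in control replicate 3, which rest on 2 and 5 peaks. In the mutant libraries the ratio was 1.60 (1.12 to 2.23), 1.58 (1.39 to 1.78) and 1.26 (1.11 to 1.42) in replicates 1, 2 and 3. Control replicate 1 was therefore highest of all 6, the other control libraries lowest, and the genotypes overlapped.

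**Figure D1:**
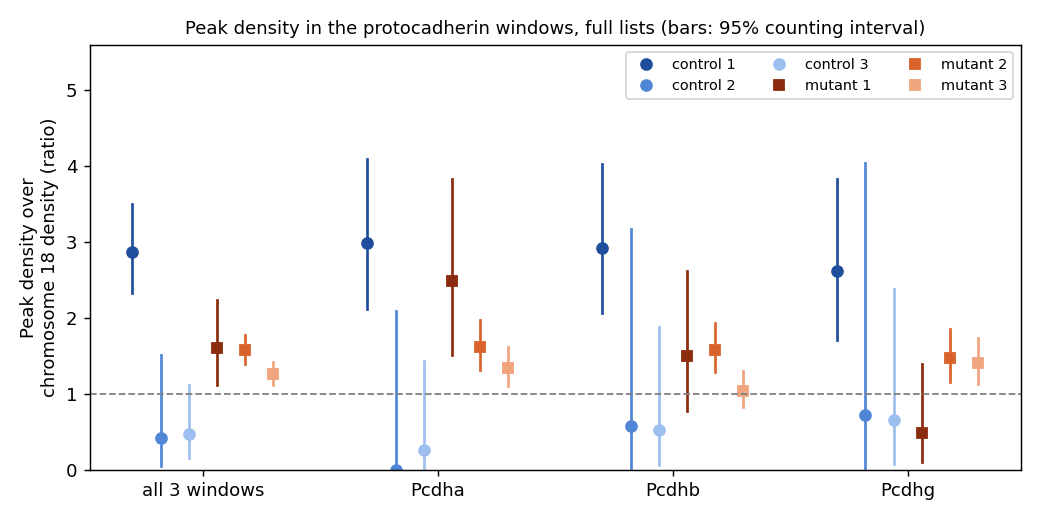
Peak density in the joint locus and in each cluster window, divided by the density over chromosome 18, in full lists; circles are control and squares mutant libraries, and bars are 95% counting intervals. In the joint locus control replicate 1 sits at 2.87 and the mutant libraries between 1.26 and 1.60, with control replicates 2 and 3 below 1.

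The genotypes did not differ in this density by more than the spread between libraries. The ratio averaged 1.25 ± 1.40 (SD, n = 3) in the controls and 1.48 ± 0.191 (SD, n = 3) in the mutants (two-sided exact permutation p = 1, adjusted p = 1 over 6 results tested). With 3 libraries against 3 this test cannot give a p below 0.1. The difference of 0.225 rested on control replicates 2 and 3: without replicate 2 it was -0.193, without replicate 3 it was -0.164, and without both, with 1 control library left and no test, -1.39. Without control replicate 1 it was 1.03, with no overlap between the groups (exact permutation p = 0.1, the smallest possible).

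With lists of equal length control replicate 1 was again highest and control replicates 2 and 3 lowest. The joint locus held 40, 2 and 3 of the 11869 peaks in control replicates 1, 2 and 3, which is 0.337%, 0.0169% and 0.0253% of the list. The mutant libraries had 11, 16 and 12 peaks, or 0.0927%, 0.135% and 0.101%. The mean was 0.126% ± 0.182 in the controls and 0.110% ± 0.0223 in the mutants (SD, n = 3, two-sided exact permutation p = 1, adjusted p = 1), and the direction turned to a difference of 0.0885 percentage points without control replicate 1. Peaks of these lists covered 17.9%, 0.0578% and 0.102% of the locus in the controls and 0.961%, 2.37% and 2.60% in mutant replicates 1, 2 and 3 (means of 6.03% ± 10.3 and 1.98% ± 0.886, SD, n = 3, two-sided exact permutation p = 1, adjusted p = 1). Without control replicate 1 this difference turned from -4.06 to 1.90 percentage points. The peaks of control replicate 1 in the locus were both more numerous and wider. Their median width was 4220 bp, against 743, 1542 and 1875 bp in mutant replicates 1, 2 and 3. The greater width was not particular to the locus. Over chromosome 18 the median width in these lists was 3754 bp in control replicate 1 and 808, 1558 and 1862 bp in the mutants. Relative to the covered share of chromosome 18, the locus was covered 9.8 times in control replicate 1. This ratio was 2.16, 2.81 and 2.37 in mutant replicates 1, 2 and 3, and 0.369 and 0.611 in control replicates 2 and 3.

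Windows of the same width placed along the rest of chromosome 18 show how the locus ranked within each library, as a description without a test. In control replicate 1 the locus had 99 peaks, against a median of 34 and a highest value of 49 over 88 windows that did not overlap. In mutant replicate 1 it had 35 peaks, against a median of 22 and a highest value of 32. In mutant replicate 2 it had 264, against a median of 166 and a highest value of 231, so in these 3 libraries it exceeded each of the 88 windows. Mutant replicate 3 had 270 peaks against a median of 214, and 3 of the 88 windows had at least as many. In control replicates 2 and 3 the locus was near the low end, as 85 of the 88 windows had at least as many peaks in each.

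**Figure D2:**
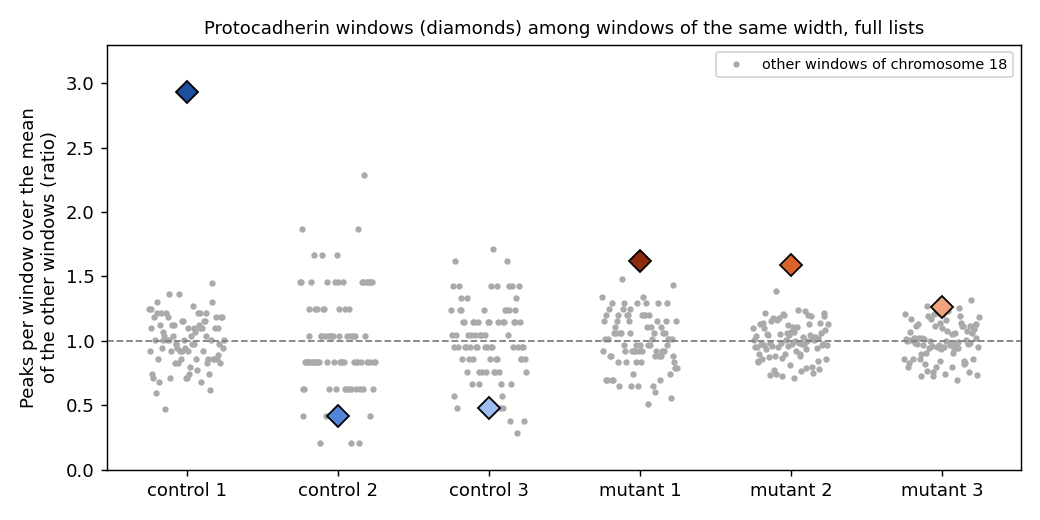
Peaks per window of 971 kb on chromosome 18 in full lists, divided by the mean of the other windows of that library; grey points are the 88 other windows and diamonds the protocadherin windows. The diamond lies above every grey point in control replicate 1 and mutant replicates 1 and 2.

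The same comparison over 2728 windows on all chromosomes left 6 with at least as many peaks as the locus in control replicate 1, 38 in mutant replicate 1, 1 in mutant replicate 2 and 127 in mutant replicate 3. The fullest windows of control replicate 1 were rich in other tandem gene families, named here after their values were seen. The window with the most peaks, 115, lay on chromosome 17 from 19511743 to 20482976 and held 9 vomeronasal receptor genes from Vmn2r100 to Vmn2r108, and a window with 105 peaks on chromosome 19 from 12794111 to 13765344 held olfactory receptor genes. In mutant replicate 2 the single fuller window, with 265 peaks, was the neighbouring stretch of chromosome 17 from 18540509 to 19511742, with Vmn2r96 to Vmn2r100. The Ugt1a genes on chromosome 1, which also join variable first exons to shared ones, had a density 0.661, 0 and 0.952 times that of their chromosome in the controls and 4.34, 0.643 and 0.630 times in mutant replicates 1, 2 and 3. The difference from the protocadherins was not tested.

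In control replicate 1 the dense stretch did not reach far past the clusters. In that library the locus was covered at 3.54 times the share of chromosome 18, and the first 100 kb before it at 2.96 times, but the first 100 kb after it at 0.675 times. Beyond 100 kb the ratio in this library was 0.807 to 1.71 before and 0.338 to 1.31 after the locus, in steps of 100 kb up to 500 kb. In mutant replicate 2 coverage was 1.68 times in the locus, 1.42 times in the first 100 kb before it and 0.968 times in the first 100 kb after it. In mutant replicate 3 the values were 1.35, 1.05 and 1.11 times. Mutant replicate 1 showed no such edge, with 1.55 times in the locus and 1.74 and 1.96 times in the first 100 kb before and after it.

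**Figure D3:**
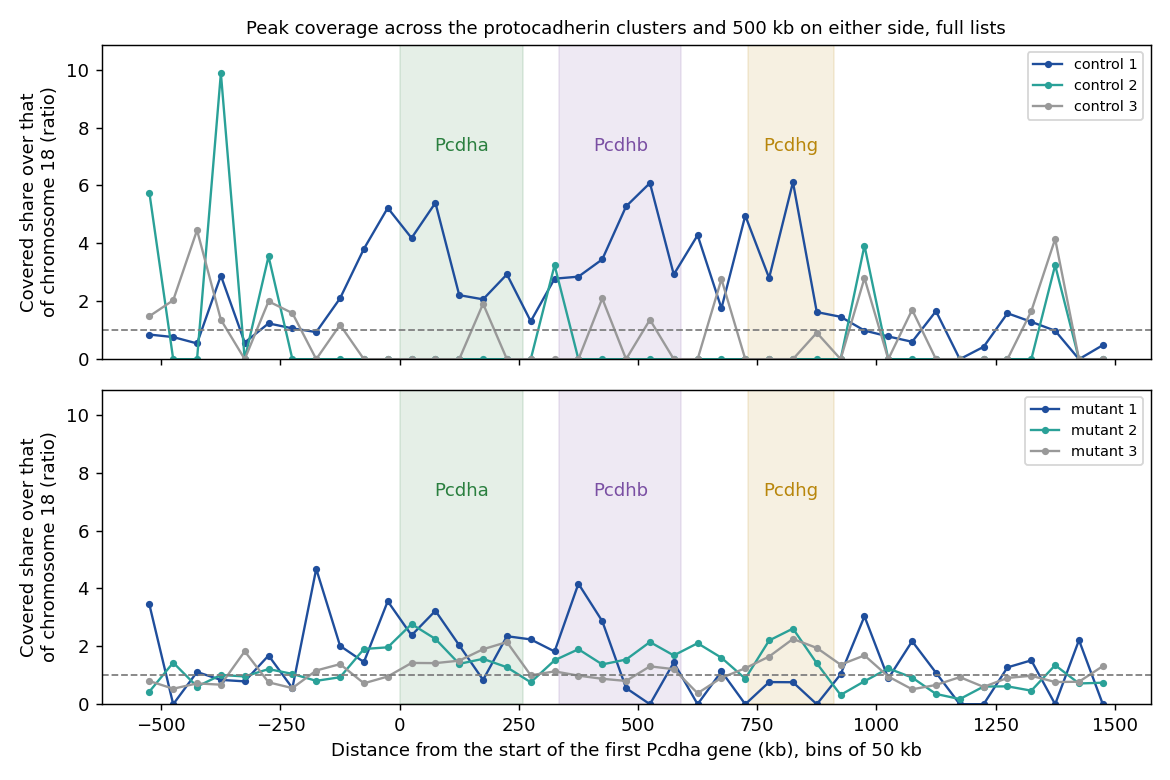
Share of each 50 kb bin covered by peaks of the full list, divided by the covered share of chromosome 18, along the clusters (shaded) and 500 kb on either side; control libraries are above and mutant libraries below. In control replicate 1 the ratio lies between 1.31 and 6.11 in the bins centred 25 to 875 kb from the first gene start; values of control replicates 2 and 3 rest on few peaks.

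The order of the clusters was not the same in every library. Over the Pcdha window the density ratio was 2.98 in control replicate 1 and 2.48, 1.62 and 1.34 in mutant replicates 1, 2 and 3, and control replicates 2 and 3 had 0 and 1 peaks there. The count of 0 allows a ratio of up to 2.09 (upper bound of the 95% exact Poisson interval). Over the Pcdhb window it was 2.92 in control replicate 1 and 1.5, 1.58 and 1.04 in mutant replicates 1, 2 and 3. Over the Pcdhg window it was 2.61 in control replicate 1 and 0.477, 1.47 and 1.41 in the mutants, where the value of mutant replicate 1 rests on 3 peaks (95% exact Poisson interval 0.0983 to 1.39). Control replicate 1 was thus dense over all 3 clusters, mutant replicate 1 most over Pcdha, and mutant replicate 3 over Pcdha and Pcdhg more than over Pcdhb.

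In equal-length lists the Pcdha window held 13, 0 and 0 peaks in the controls and 5, 5 and 5 in mutant replicates 1, 2 and 3. The Pcdhb window held 16, 1 and 2 in the controls and 4, 5 and 0 in the mutants, and the Pcdhg window 11, 1 and 1 in the controls and 2, 6 and 7 in the mutants. As percent of the list, mutant minus control was 0.00562 for Pcdha, -0.0281 for Pcdhb and 0.00562 for Pcdhg (exact permutation p = 1, 0.8 and 0.8, n = 3 per group, adjusted p = 1 for each). The direction for Pcdha and Pcdhg turned without control replicate 2 or 3 (-0.0126 for Pcdha and -0.00843 for Pcdhg, either way), for Pcdhg also without mutant replicate 3 (-0.00281), and for Pcdhb without control replicate 1 (0.0126).

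A peak near a gene start marks the individual promoter better than a peak anywhere in the gene, because all Pcdha genes end between 37187657 and 37188897 and all Pcdhg genes between 37841863 and 37841873. With the whole gene and 5 kb on either side, 48, 1 and 2 members had a peak in the equal-length lists of control replicates 1, 2 and 3, and 30, 37 and 35 in those of mutant replicates 1, 2 and 3. The share of all genes called in this way was 22.9%, 16.6% and 16.3% in the controls and 18.4%, 16.6% and 17.6% in the mutants. In full lists 57, 1 and 33 members were called in the controls and 38, 57 and 57 in mutant replicates 1, 2 and 3, where 69.7%, 16.6% and 32.2% and 49.8%, 91.8% and 92.5% of all genes were. These are not counts of separate peaks, since the spans of Pcdha and Pcdhg genes are nested: the 33 members of control replicate 3 were called by 3 peaks. Exon positions were not used, so windows at the common gene ends may not hold all constant exons. Within 5 kb of the common Pcdha end full lists had peaks of 8 steps in control replicate 1 and of 5, 4 and 8 steps in the mutant replicates 1, 2 and 3. At the common Pcdhg end there were peaks of 9 steps in control replicate 1 and of 5 and 7 steps in the mutant replicates 2 and 3, and none in the other libraries. Counted once each, the common ends thus had peaks in 4 and 3 of the 6 full lists. In equal-length lists only control replicate 1 had a peak, at the Pcdhg end. The share of other windows of this size with a peak was not computed. Chromosome 18 held 35.5 peaks per Mb in the full list of control replicate 1 and 22.5, 172 and 221 in those of mutant replicates 1, 2 and 3. No result is read from the peaks at the common ends.

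Start windows of 1 kb on either side of the first base of each member, a choice made after the data were seen, separated most but not all of the genes. In control replicate 1 the same peak counted for Pcdhga2 and Pcdhga3, for Pcdhga9 and Pcdhgb6, and for Pcdhgb7 and Pcdhga11. Counts of starts are therefore not counts of separate peaks. In full lists 33 of the 57 starts had a peak in control replicate 1, 0 in the other control libraries, and 9, 42 and 43 in mutant replicates 1, 2 and 3. In percent of members this was 57.9% in control replicate 1 and 15.8%, 73.7% and 75.4% in the mutants. The same window at the 5' ends of 17492 genes on other chromosomes had a peak at 21.1%, 0.589% and 1.58% in the controls and 5.55%, 34.7% and 55.7% in mutant replicates 1, 2 and 3. The member shares were above these values in control replicate 1 and the 3 mutant libraries. At 0.589% and 1.58%, 57 genes would hold fewer than 1 called start, so 0 in control replicates 2 and 3 says little.

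In the equal-length lists 21 member starts had a peak in control replicate 1, 0 in the other control libraries, and 5, 8 and 4 in mutant replicates 1, 2 and 3. These are 36.8%, 0% and 0% of members in the controls and 8.77%, 14.04% and 7.02% in the mutants, against 5.15%, 0.589% and 0.537% and 1.16%, 1.33% and 4.93% of the 5' ends of other genes. No member start was called in more than 2 of these lists, where 0.0743% of other genes were called in at least 3.

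Averaged over the 1 kb on either side, member starts were covered more than the rest of the clusters in the 4 libraries with many peaks, but coverage did not rise to a maximum at the start itself. Coverage by full lists was 38.5% in start windows and 30.8% in the rest of the clusters in control replicate 1. It was 5.14% and 2.11% in mutant replicate 1, 29.1% and 23.4% in mutant replicate 2, and 31.0% and 25.9% in mutant replicate 3. Position by position within 10 kb of the starts, the order was different. In control replicate 1, 35.1% of members were covered at the first base and 50.9% at the positions of highest coverage, -5250 and -5000 bp from the start. In mutant replicate 2 the values were 24.6% at the first base and 43.9% at -8250 bp. Coverage past the start also reached 49.1% at 750 and 1250 bp in control replicate 1 and 36.8% at 1000 bp in mutant replicate 2. Neighbouring starts often lie within 10 kb of each other, so a position far from one start can lie at another. The profile therefore cannot tell whether an excess was centred on the member starts in these 2 libraries. In mutant replicates 1 and 3 the highest coverage lay nearer, with 10.5% at -500 bp and 40.4% at -1000 and -750 bp, against 3.51% and 26.3% at the first base. Other genes had 1.34% and 24.1% at the first base of their 5' ends in these libraries. In mutant replicate 3 their coverage was highest at -250 bp, 24.8%, so a maximum near the start was not particular to members there. Control replicates 2 and 3 had no peak in a start window.

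Every member except Pcdhga1, the first gene of the Pcdhg cluster, had a start peak in at least 1 full list, and so did 75.2% of other genes at their 5' end. Start peaks were found in 1 full list for 11 members, in 2 for 21, in 3 for 22 and in 4 for 2, Pcdha8 and Pcdhb8. At least 3 full lists thus called 24 members (42.1%), against 7.97% of other genes, and control replicate 1 with mutant replicates 2 and 3 called 19 (33.3%), against 5.73%. A start peak in all 3 control and no mutant full list was found at 0 members and at 0.00572% of other genes. At the start of Pcdha8 the highest peak was 13 steps in control replicate 1 and 6, 4 and 4 steps in the mutant replicates 1, 2 and 3. At the start of Pcdhb8 it was 14 steps in control replicate 1 and 3, 5 and 3 steps in the mutants. By total signal these peaks were among the highest of control replicate 1 (99.8 and 99.7 as percentiles of its list), while in the mutants the percentiles were 95.1, 48.6 and 16.2 for Pcdha8 and 10.7, 68.5 and 9.89 for Pcdhb8. Among other genes, 0.537% had a 5' end called in at least 4 full lists, and the 2 of 57 members (3.51%) stand beside that.

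There were 3 members, Pcdha2, Pcdhb4 and Pcdhb5, with a start peak in all 3 mutant and no control full list, which is 5.26% of members against 0.972% of the 5' ends of other genes. At the start of Pcdha2 mutant replicates 1, 2 and 3 had peaks of 5, 4 and 5 steps. Those of Pcdhb4 were 3, 4 and 2 steps and those of Pcdhb5 3, 5 and 5 steps. None of the 3 was free of control peaks in the wider window: with the gene and 5 kb on either side, control replicate 1 had a peak of 8 steps at Pcdhb4 and of 13 steps at Pcdhb5, and Pcdha2 lies next to a peak of 11 steps in that library. In equal-length lists no member start was called in all 3 mutant and no control library, where 0.04% of other genes were.

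**Figure D4:**
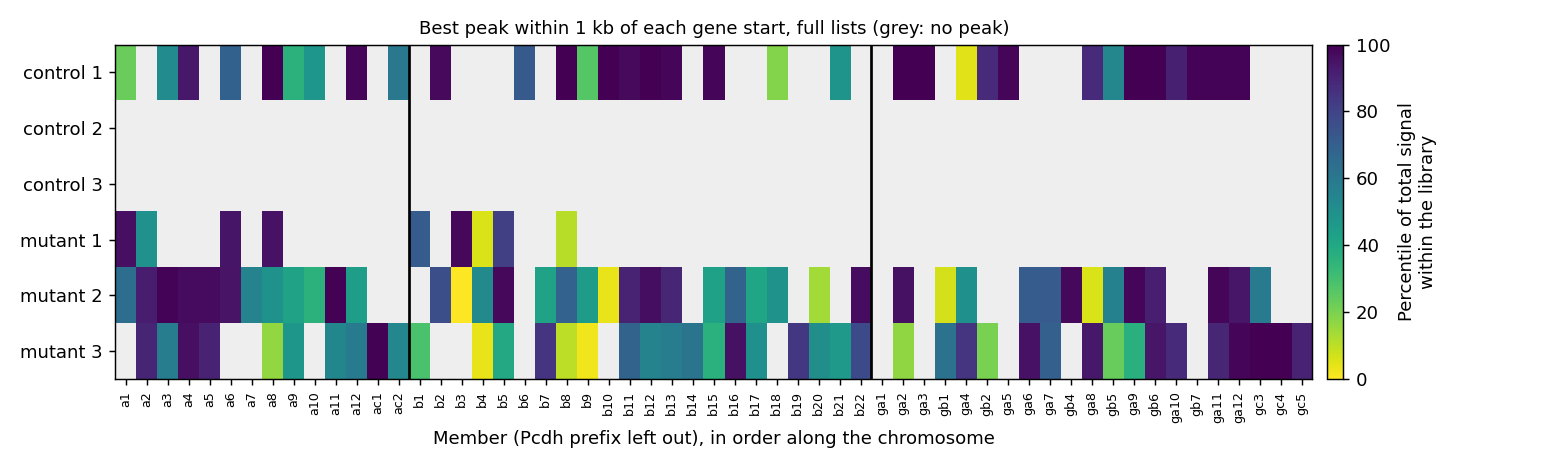
Best peak within 1 kb of each of the 57 gene starts in the full list of each library, as the percentile of its total signal in that list; grey marks no peak. Starts are filled in 33 members in control replicate 1 and in 9, 42 and 43 in mutant replicates 1, 2 and 3, and control replicates 2 and 3 are empty.

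Among Pcdha genes, 9 of 14 starts had a peak in control replicate 1 and 4, 12 and 10 in mutant replicates 1, 2 and 3. Pcdha1, the first gene, had start peaks of 12 steps in control replicate 1 and of 4 and 6 steps in the mutant replicates 1 and 2. By total signal their percentiles were 22.8, 95.8 and 63.9, so the peak of control replicate 1 ranked low in its list. Pcdha3 had 12 steps in control replicate 1 and 7 and 4 steps in the mutant replicates 2 and 3, at percentiles of 51.8, 99.0 and 57.8. Pcdha4 had 11 steps in control replicate 1 and 8 and 6 steps in the mutant replicates 2 and 3, at percentiles of 93.5, 97.2 and 95.9, so it ranked high in each of these lists. A region from 36949143 to 36952536, just before Pcdha4, was called in the equal-length lists of control replicate 1 (11 steps) and mutant replicate 2 (8 steps). Of the 12 merged regions of the joint locus that were called in 4 full lists, 8 lay in the Pcdha window, and of those 8 regions 3 lay at the starts of Pcdha2, Pcdha8 and Pcdha12, while the other regions lay 5310 bp or more from the nearest member start.

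Among Pcdhb genes, 11 of 22 starts had a peak in control replicate 1 and 5, 17 and 17 in mutant replicates 1, 2 and 3. Pcdhb5 was called in the most equal-length lists, with 13 steps in control replicate 1 and 7 and 5 steps in the mutant replicates 1 and 2 within the gene and 5 kb on either side. In the same window Pcdhb9 and Pcdhb10 shared a peak of 17 steps in control replicate 1 and one of 8 steps in mutant replicate 2. Pcdhb13 was called at 14 steps in control replicate 1 and at 3 steps in control replicate 3, the only one of the 2 Pcdhb peaks of that library within 5 kb of a member. The full lists of mutant replicates 2 and 3 had 5 steps each there. Pcdhb14 shares the peak of 3 steps. Pcdhb1, the first gene, reached 9 and 3 steps in control replicates 1 and 2 and 5, 8 and 5 steps in the mutant replicates 1, 2 and 3 in the full lists. Pcdhb22, the last gene, had 11 steps in control replicate 1 and 6 and 4 steps in the mutant replicates 2 and 3. Pcdhb gene spans were covered more than the sequence between them in control replicate 1 (38.9% and 33.1%) and mutant replicate 1 (5.46% and 1.51%), and about equally in mutant replicates 2 (24.5% and 22.6%) and 3 (18.5% and 18.3%). The values of mutant replicate 1 rest on 5 and 6 peaks.

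Among Pcdhg genes, 13 of 21 starts had a peak in control replicate 1 and 0, 13 and 16 in mutant replicates 1, 2 and 3. The tallest peak of control replicate 1 in the locus, 19 steps, spanned the start of Pcdhga9 and ended just before that of Pcdhgb6, and the merged region there, from 37733252 to 37742066, also held peaks of 8, 5 and 7 steps in the mutant replicates 1, 2 and 3. Pcdhga2 had start peaks of 12 steps in control replicate 1 and of 4 and 3 steps in the mutant replicates 2 and 3, and Pcdhga4 had 9, 4 and 5 steps in the same libraries. By total signal the percentiles were 99.8, 95.4 and 16.5 for Pcdhga2 and 4.45, 49.7 and 85.1 for Pcdhga4. Pcdhga3 shared the peak of 12 steps with Pcdhga2 in control replicate 1 and had no start peak elsewhere. Pcdhga12 ranked high in 3 lists, with 16 steps in control replicate 1 and 6 and 7 steps in the mutant replicates 2 and 3, at percentiles of 98.9, 93.9 and 98.4.

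The C-type members, compared after their values were seen, followed another order of libraries than the remaining members. In mutant replicate 3 all 5 C-type starts had a peak in the full list, of 8 steps at Pcdhac1, 4 at Pcdhac2, 7 at Pcdhgc3, 7 at Pcdhgc4 and 5 at Pcdhgc5. Control replicate 1 had a peak at 1 of them, Pcdhac2 (9 steps), mutant replicate 2 at 1, Pcdhgc3 (4 steps), and mutant replicate 1 at none. Of the other 52 starts, 32 were called in control replicate 1 and 9, 41 and 38 in mutant replicates 1, 2 and 3. In the equal-length list of mutant replicate 3, 3 of the 4 called starts were C-type (Pcdhac1, Pcdhgc3 and Pcdhgc4, at percentiles of 99.4, 99.9 and 99.8 of the full list), and no other library had a C-type start in its equal-length list. This library also had the highest share of called 5' ends among other genes in the full lists, 55.7%. In its equal-length list that share was 4.93%. The same list called the 5' ends of 4 of 8 non-clustered delta protocadherins, described below, and every other equal-length list called 0. The trait was thus not particular to C-type members, and the part of this library in it was not tested.

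Peaks of control replicate 1 and of the mutant libraries overlapped each other at a larger share in the locus than on the rest of the chromosome. Of the 99 peaks of control replicate 1 in the locus, 17.2%, 71.7% and 67.7% were overlapped by peaks of mutant replicates 1, 2 and 3, against 7.205%, 48.6% and 58.4% of its 3012 peaks on the rest of chromosome 18. Seen from the mutant libraries, 51.4%, 42.8% and 40.7% of their locus peaks were overlapped by control replicate 1, against 11.4%, 12.1% and 12.2% on the rest of the chromosome. Coverage by control replicate 1 was 31.0% of the locus and 8.76% of the chromosome, and its part in the overlap was not tested. Of the locus peaks of mutant replicate 2, 43.6% were overlapped by mutant replicate 3, against 36.2% elsewhere.

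Control replicates 2 and 3 shared 1 region of the locus with each other, away from the member starts. It lay from 37882415 to 37882856 inside Diaph1, in the flank past the Pcdhg cluster, with peaks of 3 steps in control replicate 2 and 2 steps in control replicate 3. In the full lists mutant replicate 3 had a peak of 3 steps there, and control replicate 1 and mutant replicates 1 and 2 had none. Taf7, between the Pcdhb and Pcdhg clusters, had peaks of 14 steps in control replicate 1 and of 5 and 6 steps in the mutant replicates 2 and 3 within the gene and 5 kb on either side. In this window 69.7%, 91.8% and 92.5% of all genes were called in these 3 lists.

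Genes that regulate clustered protocadherins or relay their signals were also counted. Of the 17 on the list, 10 had a 5' end in the RefSeq promoter table, and 2, 0 and 0 of them had a peak there in the full control lists and 0, 5 and 6 in the full lists of mutant replicates 1, 2 and 3. The background in the same lists was 21.1%, 0.589% and 1.58% of other genes for the controls and 5.55%, 34.7% and 55.7% for the mutants, so the 6 of 10 in mutant replicate 3 was near the background and no result is read from these counts. Ctcf, which encodes the looping protein, had 5 and 4 steps in the mutant replicates 2 and 3. Smchd1, a chromatin protein that represses the clusters, had 3 and 5 steps in the same libraries. Smc3, a cohesin subunit, had 10 steps in control replicate 1 and 5 in mutant replicate 3, and Wapl, which releases cohesin, had 6 steps in control replicate 1 and in mutant replicate 2.

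The non-clustered delta protocadherins, related adhesion genes that lie alone, were called at the 5' ends of 1, 0 and 0 of 8 genes in the controls and 1, 2 and 6 in mutant replicates 1, 2 and 3 in full lists. Pcdh20 had peaks of 4 and 9 steps in the mutant replicates 1 and 3, Pcdh10 of 4 and 6 steps in the mutant replicates 2 and 3, and Pcdh9 of 9 steps in control replicate 1 and 3 steps in mutant replicate 2. These shares stand beside 21.1%, 0.589% and 1.58% of other genes in the controls and 5.55%, 34.7% and 55.7% in the mutants. In the full list of control replicate 1 the clustered genes were thus called at 33 of 57 starts and the delta genes at 1 of 8. In mutant replicates 1, 2 and 3 the clustered genes were called at 9, 42 and 43 of 57 starts, beside 1, 2 and 6 of 8 delta genes. In the equal-length list of mutant replicate 3 the order was reversed, with 4 of 57 clustered and 4 of 8 delta genes. The other equal-length lists called 0 of 8 delta genes. These differences were not tested.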

How the data were processed

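The 6 CUT&RUN libraries made with the Myc-tag antibody were analysed, with groups and replicate numbers taken from the titles; digitonin was at 0.05%, per the labels' protocols. Peaks came from SEACR on build mm10, per the submitters' processing notes, with the version not given in the sources used here. No source used here states the aligner, read filters, scaling or any control library. The deposited lists give a total signal and a max signal per peak, called per library. Max signals below 100 steps were whole multiples of a step, within 0.01. At most 1 peak per library fell outside the 21 standard chromosomes and was left out.

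Gene positions came from RefSeq on GRCm38.p6, the assembly behind mm10. Member starts were taken as the lower coordinate, and 5' ends of other genes came from the promoter table. Overlap counted from 1 bp. Equal-length lists held the 11869 peaks of highest total signal. Two-sided exact permutation tests over 20 assignments, adjusted by Benjamini-Hochberg over 6 results, used Python 3.11.15, numpy 2.4.6, scipy 1.17.1 and pandas 2.3.3, and the counting was tested on simulated data. Members and lists were chosen with earlier results of these data known. Instead of random windows, windows of the same width were laid end to end. Named genes were up to 4 per cluster by the number of lists with a peak and then by rank, plus the first and last; this rule favours Pcdha1 to Pcdha4 and Pcdhga1 to Pcdhga4, whose spans hold those of the genes after them, so members named by start peaks were chosen after their values were seen. The planned motif search in promoters was not run.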

Additional observations from a re-analysis of the deposited data

How the results depend on the processing

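For the 6 tested results the genotypes overlapped under every alternative that kept all 6 libraries. The depth behind the lists is unknown. Values are mutant minus control. The filter on height kept peaks of at least 4 steps and shortened the equal-length lists to 812 peaks, so it changed height and length together. For the share of equal-length peaks in the joint locus (-0.0169 percentage points) the sign turned with full lists (0.0112), ranking by max signal (0.0393) and no flank (0.00281); it was -0.287 with the height filter, -0.0506 in the top 5934 peaks, -0.227 without control replicates 2 and 3, and -0.0716 to 0.0885 without single libraries. For Pcdha (0.00562) it turned with the height filter and its shorter lists (-0.0821) and a flank of 100 kb (-0.00281), for Pcdhb (-0.0281) with full lists (0.00131; -0.205 with the height filter), and for Pcdhg (0.00562) with full lists (-0.00177). Without single libraries these ranged from -0.0126 to 0.0421, -0.0506 to 0.0126 and -0.00843 to 0.0337. Coverage (-4.06 percentage points) turned with full lists (6.17) and, as a ratio to chromosome 18, to 0.0651, with -7.04 to 1.90 without single libraries. The density ratio (0.225) was 0.603 with the height filter, where control replicates 2 and 3 were at 0, -1.39 without control replicates 2 and 3 and ranged from -0.193 to 1.03 without single libraries. Members called (17 more in mutant libraries) came to 4 with the height filter and its shorter lists and 9 to 32.5 without single libraries. The 17 rested on control replicates 2 and 3, with 1 and 2 members called. Control replicate 1 had 48, above the 30, 37 and 35 of mutant replicates 1, 2 and 3. In these equal-length lists 16.3% to 22.9% of all genes were called. The cause of the changes between settings was not tested, beyond what the list left out shows. With a replicate block, which gives p of at least 0.25, the values were the same (0.225 for the density ratio) with exact p = 0.75 to 1. Same-numbered libraries did not deviate together over 1 Mb windows (r = 0.0520, 0.00992 and -0.0259), and neither did pairs with other numbers (r = -0.0515 to 0.0622). Such values cannot show whether the numbers pair the libraries by litter or batch. The ratio without control replicates 2 and 3, coverage relative to chromosome 18 and start windows were added after seeing the data.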
